A study of Mus musculus with 5 samples.

Results

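The 5 miRNAs described here, mmu-miR-296-5p, mmu-miR-296-3p, mmu-miR-134-5p, mmu-miR-145a-5p and mmu-miR-470-5p (written below without the prefix for mouse), come from 4 hairpins whose products were reported to act on mRNAs of the core pluripotency factors Oct4, Sox2 and Nanog. They were taken by probe name alone, as 5 of the 1265 mouse miRNA spots on each array, with 1 spot per miRNA. The study hybridised Hy5-labelled total RNA from 5 mouse cultures to single-colour miRNA arrays, 1 for each culture, so no group has a replicate. The embryoid body (EB) was a floating culture that was made from V6.5 cells and had been kept for 1 week without LIF, the cytokine that holds mouse embryonic stem (ES) cells undifferentiated. The 4 ES cultures were grown with LIF. 2TS22c and ZHBTc4 are known as lines in which a drug switches off a transgene that is the cells' source of Sox2 in 2TS22c and of Oct4 in ZHBTc4. PKM1 KI is by its name a line with a knock-in of PKM1, a form of the glycolytic enzyme pyruvate kinase, and V6.5 is the wild type. The labels name no drug and no feeder cells for any culture, so 2TS22c and ZHBTc4 are described here as untreated as far as the labels go.

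A miRNA pairs through its seed, bases 2 to 8, with sites in mRNAs and lowers their translation or stability. In mouse ES cells, miR-134, miR-296 and miR-470 are known for sites within the coding regions of Nanog, Oct4 and Sox2, in differing combinations, and for promoting differentiation. In human ES cells, miR-145 is known to repress OCT4, SOX2 and KLF4. A miRNA array does not measure these mRNAs, so no target was read here.

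The mature sequences of 4 members are shown for their seeds, set in capitals. The 4 seeds differ from each other, and no other mouse miRNA in the RefSeq table shares any of them. Sequences and positions are those of RefSeq on mouse build GRCm38.p6.
miR-296-5p, chr2:174267093-174267113, minus strand: aGGGCCCCcccucaauccugu
miR-296-3p, chr2:174267058-174267079, minus strand: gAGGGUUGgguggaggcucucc
miR-134-5p, chr12:109734145-109734166, plus strand: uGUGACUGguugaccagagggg
miR-470-5p, chrX:66813995-66814017, minus strand: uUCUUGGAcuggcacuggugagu
G and C made up 66.7% of the bases of miR-296-5p, 68.2% of miR-296-3p, 59.1% of miR-134-5p and 52.2% of miR-470-5p. miR-145a-5p is described by its probe only.

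Values below are spot intensities as scanned, or log2 signals after background correction with an offset of 50 and quantile normalisation, which pull dim spots together. A miRNA counted as detected where its spot was brighter than the blank spots' mean by over 2 of their SDs on that array, a limit of 40.3 on the EB, 59.9 on 2TS22c, 61.6 on ZHBTc4, 59.5 on PKM1 KI and 59.9 on V6.5. The detector gain was 43 for the EB, 46 for 2TS22c and 47 for the other arrays, so intensities are set against each array's own limit. Of all miRNA spots, 750 were detected on the EB, 507 on 2TS22c, 520 on ZHBTc4, 763 on PKM1 KI and 754 on V6.5. Of the 24 negative control spots, 12 lay above the same limit on the EB, 3 on 2TS22c, 2 on ZHBTc4, 16 on PKM1 KI and 11 on V6.5, so a spot just above it is weak evidence of a miRNA. ZHBTc4 was alone on a second chip, so for ZHBTc4 chip, line origin and switchable gene cannot be told apart. 2TS22c shared a chip with the EB, PKM1 KI and V6.5. For 2TS22c, line origin and switchable gene cannot be told apart. The ES marker miRNAs of the miR-290 cluster, miR-290-3p to miR-295-3p, were detected on all 5 arrays with all 6 spots.

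miR-296-5p was the bright member, well above the limit in every culture. Its spot read 751 on the EB, 293 on 2TS22c, 311 on ZHBTc4, 888 on PKM1 KI and 710 on V6.5. Both switchable lines lay far below the other cultures, which did not overlap with them. As a log2 signal it was 9.48 on the EB, 8.91 on 2TS22c, 8.91 on ZHBTc4, 9.37 on PKM1 KI and 9.24 on V6.5. The identical value of the switchable lines arose because miR-296-5p ranked 68 among the 1265 spots on both, against 50 on the EB, 54 on PKM1 KI and 57 on V6.5.

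miR-296-3p, from the other arm of the same hairpin, was dimmer and moved otherwise. Its spot read 108 on the EB, 97 on 2TS22c, 115 on ZHBTc4, 126 on PKM1 KI and 128 on V6.5, above the limit on all 5 arrays. The log2 signal was 7.03 on the EB, 7.20 on 2TS22c, 7.36 on ZHBTc4, 6.91 on PKM1 KI and 6.92 on V6.5. After quantile normalisation the switchable lines were thus the highest for the 3p arm and the lowest for the 5p arm.

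**Figure D1:**
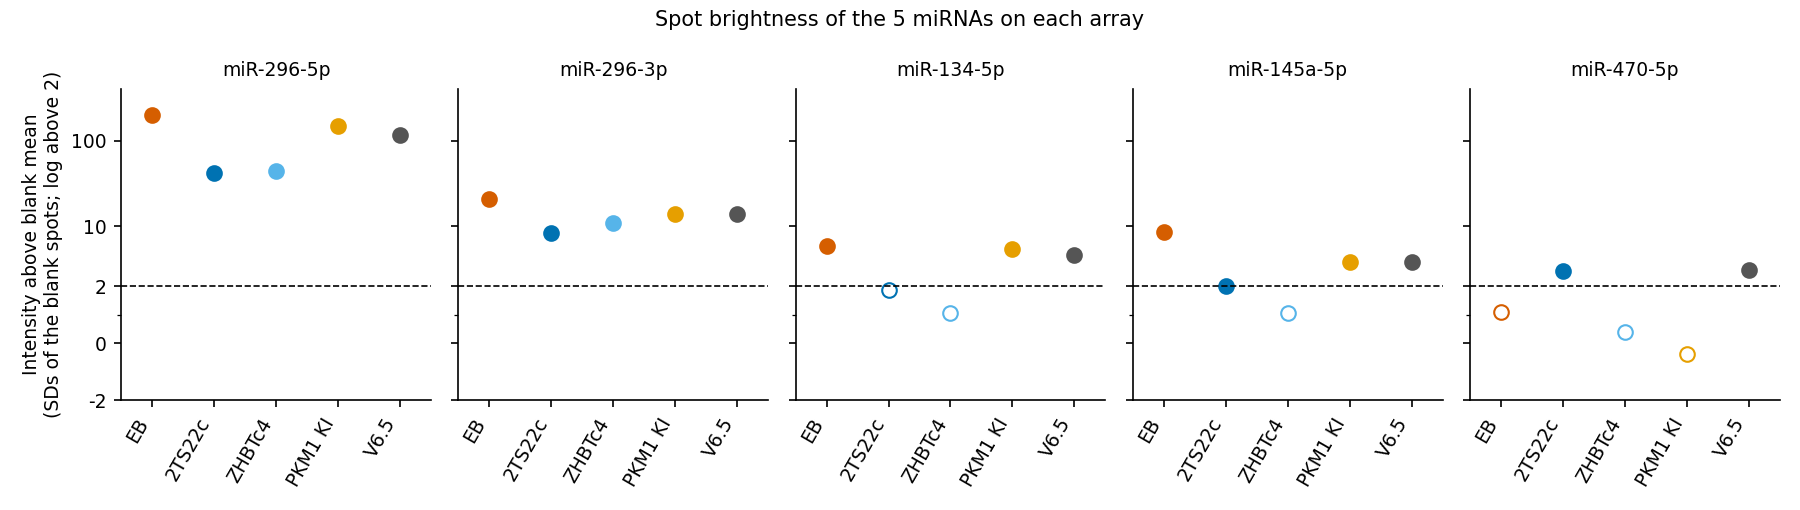
Spot brightness of the 5 miRNAs on each array, as the intensity above the mean of the blank spots in units of their SD (vertical axis, linear up to 2 and logarithmic above). The dashed line is the detection limit of 2 SD, filled points are detected and open points not. Both arms of miR-296 stand clear of the limit in every culture, while miR-134-5p, miR-145a-5p and miR-470-5p lie around it.

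The other members were near the detection limit. miR-134-5p read 54 on the EB, 59 on 2TS22c, 56 on ZHBTc4, 79 on PKM1 KI and 75 on V6.5. It was detected on the EB, PKM1 KI and V6.5 and on neither switchable line. Its log2 signal was 6.36 on the EB, 6.27 on 2TS22c, 6.14 on ZHBTc4, 6.41 on PKM1 KI and 6.38 on V6.5.

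miR-145a-5p, which with miR-143 is known as abundant in smooth muscle and mesenchymal cells, read 64 on the EB, 60 on 2TS22c, 56 on ZHBTc4, 70 on PKM1 KI and 70 on V6.5. ZHBTc4 was the one array on which it was not detected, and on 2TS22c it sat at the limit. The EB stood out against its lower limit, 8.65 SD of the blank spots above their mean, against 2.02 on 2TS22c, 1.06 on ZHBTc4, 3.86 on PKM1 KI and 3.78 on V6.5. By a limit taken from the negative control spots, which is higher, miR-145a-5p was detected on the EB alone. The log2 signal was 6.52 on the EB, 6.31 on 2TS22c, 6.14 on ZHBTc4, 6.29 on PKM1 KI and 6.30 on V6.5.

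miR-470-5p read 37 on the EB, 66 on 2TS22c, 52 on ZHBTc4, 46 on PKM1 KI and 66 on V6.5. It was detected on 2TS22c and V6.5, by a small margin on each, and on 2TS22c alone by the limit from the negative control spots. The log2 signal was 6.05 on the EB, 6.49 on 2TS22c, 6.04 on ZHBTc4, 5.89 on PKM1 KI and 6.24 on V6.5. No call in a direction can rest on levels this close to blank.

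The other arms gave a mixed picture. miR-134-3p, with G and C at 65.0% of its bases, was detected on all 5 arrays, at 72 on the EB, 73 on 2TS22c, 96 on ZHBTc4, 112 on PKM1 KI and 101 on V6.5. Its log2 signal, 6.62 on the EB, 6.69 on 2TS22c, 7.01 on ZHBTc4, 6.78 on PKM1 KI and 6.67 on V6.5, overlapped between the switchable and the other ES lines. miR-470-3p was detected on 0 arrays, miR-145a-3p on V6.5 alone and miR-145b, a relative of miR-145a, on PKM1 KI alone.

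The EB was set against V6.5, the line it came from, to see whether the pluripotency-directed miRNAs differ after a week of differentiation. None of the 5 was at least 2-fold higher, beside 0.118% of the 850 miRNAs detected on either array, and none at least 2-fold lower, beside 0.235%. The log2 difference of the EB over V6.5 was 0.24 for miR-296-5p, 0.11 for miR-296-3p, 0.22 for miR-145a-5p and -0.01 for miR-134-5p. These 4 were detected on both arrays, and the median over the 850 was 0.01. Repeat spots of 1 dim control probe on an array scattered with a median SD of 0.10 on the log2 scale. The spot error of a difference of 2 such spots was 0.15. The differences of miR-296-3p and miR-134-5p are within it, and that of the dim miR-145a-5p is not far beyond it. miR-470-5p was detected on V6.5 and not on the EB, and no direction is given for it.

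Against all 4 ES lines, limma gave no call among the members. The EB lay above every ES line for miR-296-5p, with a log2 difference of 0.38 (SE 0.23), an unadjusted p of 0.154 and a limma adjusted p of 0.990. It lay above every ES line for miR-145a-5p as well, with a difference of 0.25 (SE 0.12), an unadjusted p of 0.0949 and the same limma adjusted p of 0.990. Lying above all 4 lines held for 18.6% of the 959 miRNAs tested, so those positions are common. The differences of the other 3 members were 0.06 (SE 0.15) for miR-134-5p, -0.07 (SE 0.21) for miR-296-3p and -0.11 (SE 0.25) for miR-470-5p, and each of the 3 changed sign under at least 1 other setting. limma called 0 miRNAs higher (0% of 959) and 0 lower at an adjusted p under 0.05. At an unadjusted p under 0.05 it gave 15 higher (1.56%) and 8 lower (0.834%). The 4 ES arrays are of different lines and supply the spread, and the single EB is assumed to vary like them.

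The EB difference of miR-296-5p depended on the scaling. Over the spike controls, synthetic RNAs added to each sample, its signal was 11.0% ± 0.701 on the EB, 2.39% ± 0.201 on 2TS22c, 2.40% ± 0.152 on ZHBTc4, 7.48% ± 0.600 on PKM1 KI and 5.67% ± 0.326 on V6.5. The errors carry the spot-to-spot SD of the control probes, 8 spots each, and not the spread between cultures. On that scale the EB was 1.94-fold above V6.5, and the 3p arm, at 1.15% against 0.681%, was 1.69-fold above it. The 392 miRNAs detected on all 5 arrays together lay 0.30 higher on the log2 scale on the EB than on V6.5 with spike scaling, against 0.01 with quantile normalisation. limma's difference of miR-296-5p from the ES lines was 1.33 with spike scaling, with an adjusted p of 0.427. That of miR-145a-5p was 0.55, with an adjusted p of 0.360.

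Markers of differentiated cells were read beside these levels, since an EB holds several cell types, and in such bulk RNA a change in the number of cells of a type and in the RNA per cell cannot be told apart. Of the 3 neural markers, all 3 were higher on the EB than the ES mean, with 0 past the limma threshold. Their summed signal was 3.03% of the spike signal on the EB and 0.369% to 0.660% on the ES lines. Of 9 mesenchymal markers 7 were higher than the ES mean, or 5 with local background, with 0 past the threshold. Against V6.5, the line it came from, the EB was lower in their median log2 signal, at 7.06 against 7.26. Their sum was 12.2% of the spike signal on the EB, 2.00% on 2TS22c, 2.08% on ZHBTc4, 6.87% on PKM1 KI and 9.68% on V6.5. miR-143-3p, transcribed with miR-145a, read 79 on the EB, 59 on 2TS22c, 67 on ZHBTc4, 70 on PKM1 KI and 88 on V6.5, and was not detected on 2TS22c. Its partner miR-143-5p read 64 on the EB, 89 on 2TS22c, 76 on ZHBTc4, 105 on PKM1 KI and 90 on V6.5. The limma differences of the EB were 0.33 for miR-143-3p and -0.23 for miR-143-5p, and neither passed the threshold; with spike scaling both were higher. The liver marker miR-122-5p was detected on 0 arrays. All 6 ES markers were lower on the EB than the ES mean, at a median of -1.15 on the log2 scale, or -0.57 with local background and -0.24 with spike scaling, again with 0 past the threshold. Their summed signal was 81.1% of the spike signal on the EB, 124% on 2TS22c, 131% on ZHBTc4, 82.9% on PKM1 KI and 74.8% on V6.5, so on that scale the EB lay above V6.5, the line it came from. The part of these cell types in the levels of the 5 miRNAs was not tested.

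The switchable lines 2TS22c and ZHBTc4 were set against PKM1 KI and V6.5 to compare ES lines whose Sox2 or Oct4 comes from a transgene with lines that keep their own. On the quantile scale no member passed limma's threshold, beside 7.79% of 924 miRNAs called higher and 6.71% called lower. With any 1 of the 4 lines left out limma called 0 miRNAs in either direction, so every quantile-scale call in this comparison was lost without any 1 of them. The nearest was miR-296-5p, with a mean log2 signal of 8.91 in the switchable lines and 9.30 in PKM1 KI and V6.5. The difference was -0.39 (SE 0.11), lower in 2 of 2 lines, with an unadjusted p of 0.0115 and a limma adjusted p of 0.0724. The 3p arm had a mean of 7.28 in the switchable lines and 6.92 in PKM1 KI and V6.5. That difference was 0.36 (SE 0.11), higher in 2 of 2 lines, with an unadjusted p of 0.0183 and a limma adjusted p of 0.100. Both arms were among the miRNAs with an unadjusted limma p under 0.05, which made up 12.9% higher and 13.4% lower of the 924. Of the 924, 23.3% had both switchable lines above both other lines and 31.2% had them below, so the lack of overlap in either arm is common here.

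**Figure D2:**
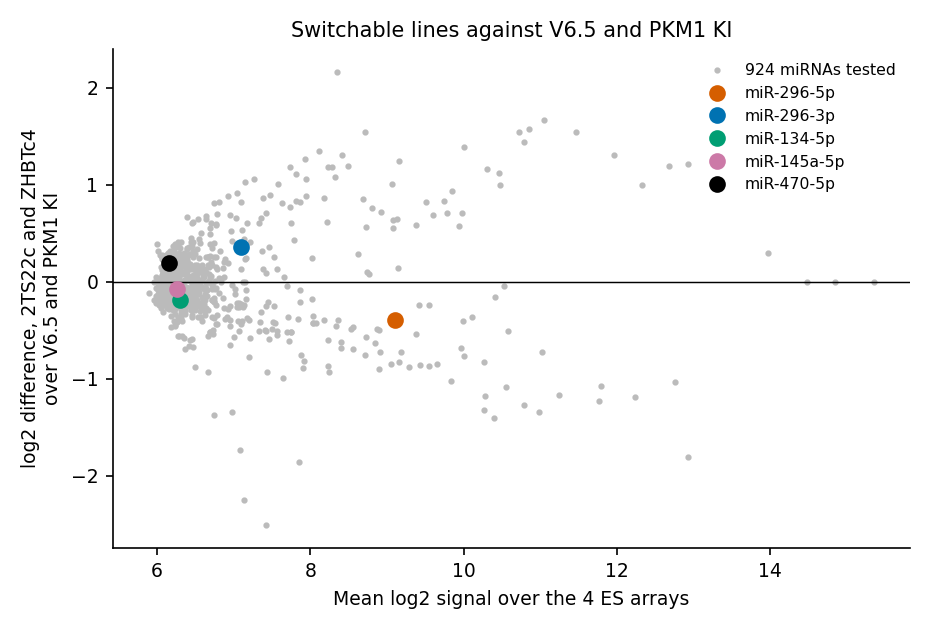
The log2 difference of 2TS22c and ZHBTc4 over V6.5 and PKM1 KI (vertical axis) against the mean log2 signal over the 4 ES arrays (horizontal axis) for the 924 miRNAs tested, with the 5 members in colour. miR-296-5p sits at -0.39 and miR-296-3p at 0.36, while miR-134-5p, miR-145a-5p and miR-470-5p lie in the dense cloud of dim miRNAs.

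The call for miR-296-5p turned on the scaling. With arrays scaled to the median of the miRNAs detected on all of them, its difference was -0.59 and limma's adjusted p 0.00762. With scaling to the spike controls it was -1.24, with a limma adjusted p of 4.23e-06. On that scale limma called 24% of all 924 miRNAs lower and 1.95% higher. From the deposited table of processed values it was -1.30, with a limma adjusted p of 0.0207. There limma called 254 of the 924 miRNAs lower and 16 higher. Over the 9 alternatives run, median scaling among them, limma called 14 to 254 miRNAs lower and 16 to 103 higher. The miRNAs detected on all 5 arrays together lay -0.29 lower in the switchable lines with spike scaling and -0.70 in the deposited table, against 0.01 on the quantile scale. Relative to the spike signal miR-296-5p averaged 2.39% in the switchable lines and 6.57% in PKM1 KI and V6.5, a 2.75-fold lower level. The direction was the same under all 9 alternatives run and in the 4 fits that left out 1 line. Among the 9, those that changed only the detection limit or filter, or added the EB to the fit, could not change this difference.

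The 3p arm took no fixed direction. Its difference of 0.36 became -0.17 with spike scaling, at a limma adjusted p of 0.378, and -0.39 in the deposited table, at 0.205. Over the spike signal miR-296-3p was 0.477% ± 0.0672 on 2TS22c, 0.599% ± 0.0810 on ZHBTc4, 0.693% ± 0.0739 on PKM1 KI and 0.681% ± 0.0793 on V6.5. The error range of ZHBTc4 overlaps those of PKM1 KI and V6.5, and that of 2TS22c does not.

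**Figure D3:**
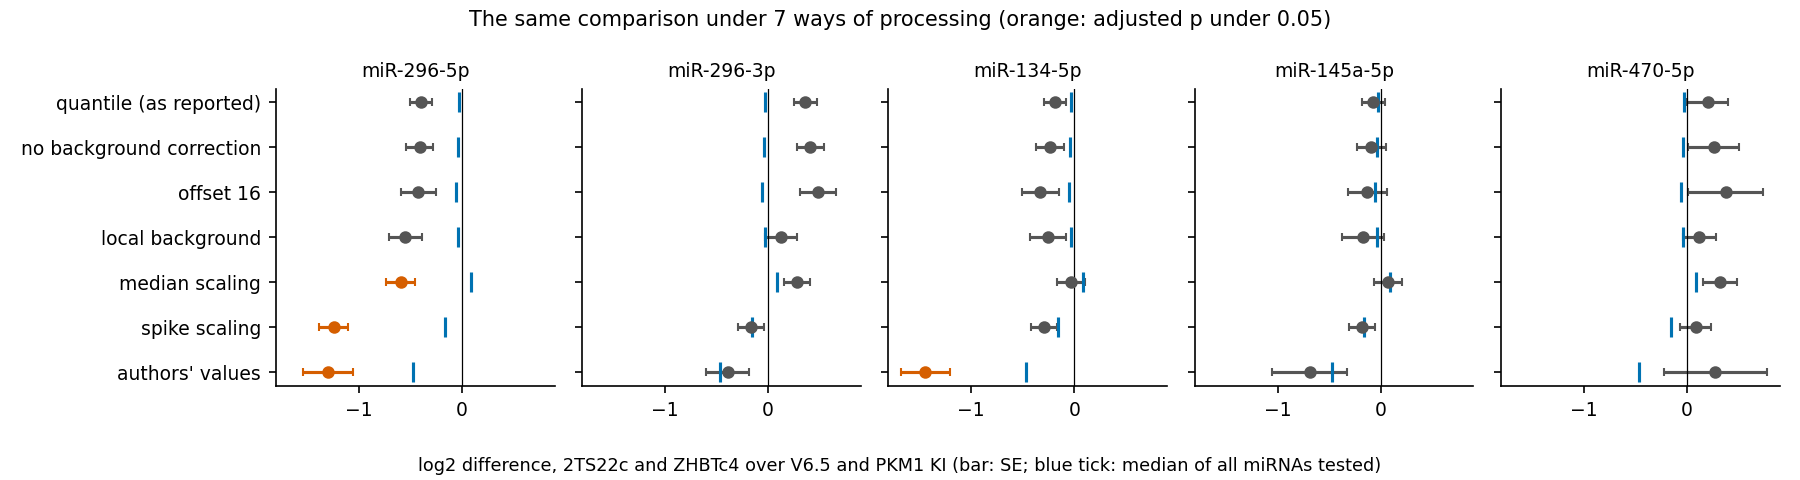
limma's log2 difference of 2TS22c and ZHBTc4 over V6.5 and PKM1 KI (horizontal axis, bars are SE) for each member under 7 ways of processing (rows). Orange points have an adjusted p under 0.05, and the blue tick is the median of all miRNAs tested. miR-296-5p is below 0 in every row, from -0.39 to -1.30, while miR-296-3p lies on both sides of 0.

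The arms of miR-296 were also set against each other within each array, where a single scaling factor for the array cancels. The 5p spot over the 3p spot, each above the blank mean, was 9.59 ± 0.934 on the EB, 5.01 ± 0.811 on 2TS22c, 4.00 ± 0.593 on ZHBTc4, 10.8 ± 1.41 on PKM1 KI and 8.32 ± 1.07 on V6.5. The errors are spot-to-spot errors. The EB lay between PKM1 KI and V6.5, and both switchable lines lay below all 3 by more than their spot errors. The mean log2 ratio shifted by -1.08 in the switchable lines, a measure chosen after the values were seen. The size depended on the processing: the same shift was -0.76 on the quantile scale, -0.67 with local background, -0.88 with median scaling and -0.91 in the deposited table. Among the 54 hairpins with both arms detected on all 5 arrays, the switchable lines did not overlap with PKM1 KI and V6.5 for 31 (57.4%). The shift was lower than that of miR-296 in 6 of the 54 and larger in size in 12, with a median of 0.02 and a range from -2.04 to 1.54. A shift of this size between the arms was therefore not rare on these arrays.

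**Figure D4:**
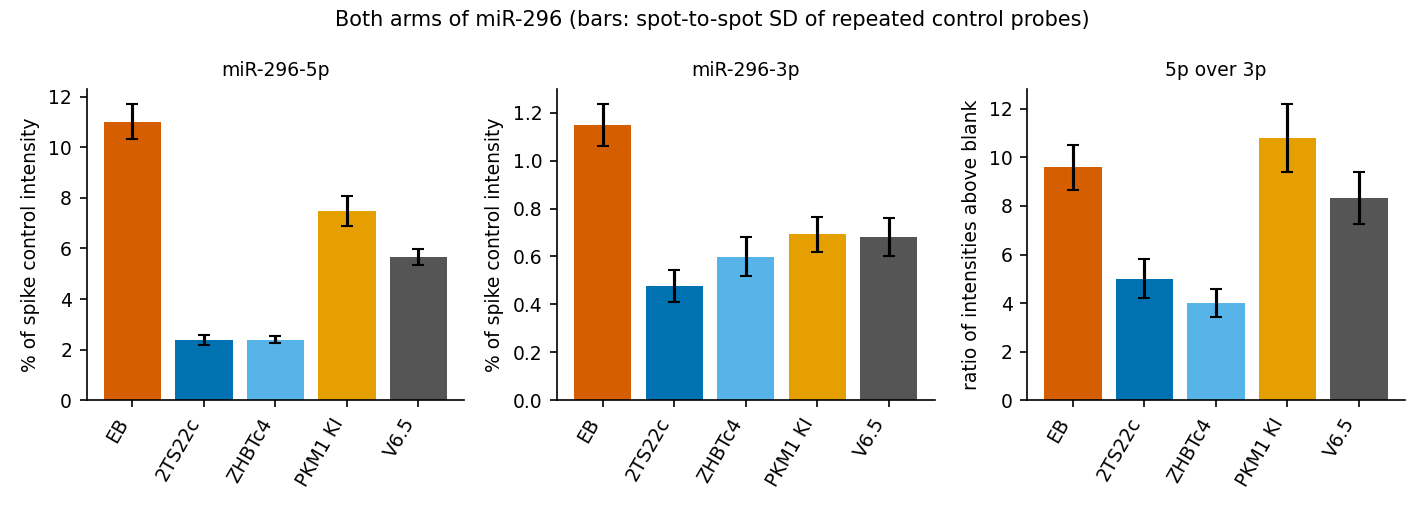
miR-296-5p and miR-296-3p as a percentage of the spike control intensity, and the ratio of the 5p to the 3p arm (vertical axes), on each array; error bars are the spot-to-spot SD of repeated control probes carried into each value. The 5p arm is at 2.39% and 2.40% on the switchable lines and between 5.67% and 11.0% elsewhere, and the ratio is 5.01 and 4.00 against 8.32 to 10.8.

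The base composition of the miRNAs moved with the same comparison. For 749 of the 924 miRNAs tested (81.1%) a RefSeq sequence was found. Those with under 40% G and C had a median difference, switchable over other ES lines, of 0.01 (87 miRNAs). The median was -0.09 at 60% to 70% (150 miRNAs), the class of both arms of miR-296, and -0.34 at 70% and over (44 miRNAs). Across the 749, which share 4 arrays and are not independent, Pearson's r between the share of G and C and the difference was -0.29, or -0.43 with spike scaling. For the EB over the ES lines it was 0.32, and the class at 70% and over had a median of 0.32. miR-296-5p, at -0.39, was further from 0 than its class median and miR-296-3p, at 0.36, on the other side of it. The part of base composition in the difference of miR-296-5p was not tested.

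**Figure D5:**
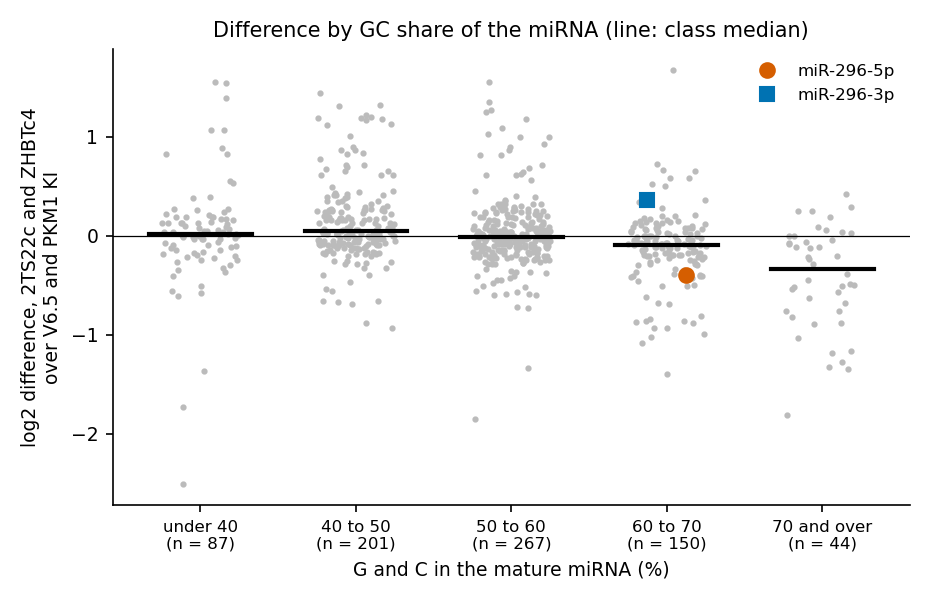
The log2 difference of 2TS22c and ZHBTc4 over V6.5 and PKM1 KI (vertical axis) for 749 miRNAs in classes by the share of G and C in the mature miRNA (horizontal axis, with the number in each class); black lines are class medians. The medians run from 0.01 under 40% to -0.34 at 70% and over, and the arms of miR-296 lie on opposite sides of the median of their class.

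For the dim members the switchable comparison gave small differences. limma's difference was -0.19 (SE 0.11) for miR-134-5p, with an adjusted p of 0.350. It was -0.07 (SE 0.11) for miR-145a-5p, with a limma adjusted p of 0.753 and 0.076 in place of -0.07 with median scaling, and 0.20 (SE 0.20) for miR-470-5p, with 0.605. As bounds from detection, V6.5 was at least 1.04-fold above 2TS22c and at least 1.05-fold above ZHBTc4 for miR-134-5p, but with median scaling neither bound remained and 2TS22c lay 0.10 above V6.5 on the log2 scale. In the deposited table miR-134-5p had a difference of -1.44 and a limma adjusted p of 0.0153, but it has no value there on ZHBTc4 and was set to the lowest value of that array. Each switchable line alone was also compared with V6.5. No member was at least 2-fold apart on 2TS22c, beside 2.99% of 804 miRNAs higher and 1.99% lower, nor on ZHBTc4, beside 2.61% of 805 higher and 1.61% lower.

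Some ES, mesenchymal and neural markers differed between the same lines. All 6 ES markers were higher in the switchable lines and passed limma's threshold, at a median log2 difference of 1.49 (0.69 with spike scaling). Among all 924 miRNAs tested limma called 7.79% higher and 6.71% lower. With local background 3 of the 6 passed. Their summed signal, given above, was higher on both switchable lines than on PKM1 KI and V6.5. Of the 9 mesenchymal markers 8 were lower and 3 of these passed the threshold, against 2 with local background. With spike scaling 6 passed, beside 24% called lower among all miRNAs tested. The 3 on the quantile scale are miR-125b-5p at -1.34, miR-29a-3p at -0.93 and miR-21a-5p at -0.61, abundant miRNAs of fibroblasts and other differentiated cells. Of the 9 markers 5 were detected on 2TS22c and 5 on ZHBTc4, against 8 on PKM1 KI and 9 on V6.5. Among all miRNA spots, 40.1% were detected on 2TS22c and 41.1% on ZHBTc4, against 60.3% on PKM1 KI and 59.6% on V6.5. Of the 3 neural markers 1 passed: miR-124-3p, a miRNA of neurons, read 99 on 2TS22c and 107 on ZHBTc4, against 61 on PKM1 KI and 99 on V6.5. Its log2 difference was 0.82, with a limma adjusted p of 0.0327, and the call was lost with spike scaling, at 0.37 and 0.0913, with local background, at 0.44 and 0.387, and in the deposited table, at 1.42 and 0.140. miR-122-5p of liver was detected on none of these arrays. The part of other cells in the difference of miR-296-5p was not tested.

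PKM1 KI and V6.5 were set against each other without a test, with 1 array each. The log2 differences, PKM1 KI over V6.5, were 0.13 for miR-296-5p, -0.01 for miR-296-3p, 0.04 for miR-134-5p and -0.01 for miR-145a-5p, all detected on both arrays. That of miR-296-5p was 0.31 with median scaling, 0.37 with spike scaling and 0.40 in the deposited table. miR-470-5p was detected on V6.5 alone, where its spot did not reach the higher, negative-control limit, and no direction is given for it. None was at least 2-fold apart, beside 0.229% of 874 miRNAs higher and 0.114% lower. For miR-296-5p the order of the cultures by log2 signal was EB, PKM1 KI, V6.5 and then the switchable lines. The EB lay 0.12 above PKM1 KI in log2 signal, and PKM1 KI lay 0.13 above V6.5. Both gaps are below 0.15, the spot error of a difference of 2 dim spots. On the spike scale the gaps between EB, PKM1 KI and V6.5 were each larger than their spot errors, and the switchable lines did not differ beyond theirs.

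The genomic neighbours of the members were read next, since hairpins of 1 primary transcript are made together. miR-298 lies 0.457 kb from the hairpin of miR-296 on chromosome 2. miR-298-5p read 100 on the EB, 121 on 2TS22c, 110 on ZHBTc4, 112 on PKM1 KI and 97 on V6.5. Its log2 signal was 6.94 on the EB, 7.49 on 2TS22c, 7.23 on ZHBTc4, 6.78 on PKM1 KI and 6.62 on V6.5, so it was higher in both switchable lines than in any other culture. Its difference in the switchable lines, 0.66, passed limma's threshold with an adjusted p of 0.0265, in the opposite direction to that of miR-296-5p. The call was lost with spike scaling, at 0.18 and a limma adjusted p of 0.364, and with local background, at 0.06 and 0.934. miR-298-3p was detected on 0 arrays.

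miR-134 lies within the Dlk1-Dio3 imprinted region on chromosome 12, and 35 neighbouring hairpins were placed 0.368 to 25.1 kb from it. Of their 73 spots, 46 were detected on the EB, 17 on 2TS22c, 17 on ZHBTc4, 48 on PKM1 KI and 45 on V6.5. By the negative control limit these counts were 22 on the EB, 11 on 2TS22c, 13 on ZHBTc4, 25 on PKM1 KI and 21 on V6.5. Of all 1265 miRNA spots, 59.3% were detected on the EB, 40.1% on 2TS22c, 41.1% on ZHBTc4, 60.3% on PKM1 KI and 59.6% on V6.5. The neighbours' summed signal was 54.0% of the spike signal on the EB, 16% on 2TS22c, 17.0% on ZHBTc4, 40.6% on PKM1 KI and 36.4% on V6.5. Of each sum, 63.8% to 71.5% came from 3 spots, miR-494-3p, miR-3072-5p and miR-3072-3p. In the switchable comparison 45 of 59 tested were lower and 14 higher, at a median of -0.10 beside -0.03 for all miRNAs tested. limma called 4 of them lower (6.78%) and 2 higher (3.39%), beside 6.71% lower and 7.79% higher among all miRNAs tested, so the share called lower was near the background. Called lower were miR-411-3p (-0.69), miR-381-3p (-0.66), miR-495-3p (-0.58) and miR-3072-5p (-0.54), and called higher were miR-487b-3p (0.83) and miR-3072-3p (0.72). The arms of miR-3072 thus lay on opposite sides of 0 on the quantile scale, as those of miR-296 did. With spike scaling limma called 15 of the neighbours lower (25.4%) and 0 higher, beside 24% lower and 1.95% higher among all miRNAs tested. On that scale miR-3072-3p stood at -0.21 and miR-487b-3p at 0.03, and with median scaling 27 were lower and 32 higher. With local background it called 0 of them. The brightest neighbour, miR-494-3p, read 1244 on the EB, 550 on 2TS22c, 601 on ZHBTc4, 1393 on PKM1 KI and 1528 on V6.5, and its difference of -0.40 did not pass, at a limma adjusted p of 0.114. Against the ES lines the EB had 35 of 62 neighbours higher and 27 lower, with 0 past the threshold, but 19 higher and 43 lower with median scaling.

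The X-linked neighbours of miR-470, a group known mainly from testis, were mostly near blank. Of 34 spots of hairpins 3.52 to 1196 kb away, 5 were detected on the EB, 2 on 2TS22c, 1 on ZHBTc4, 3 on PKM1 KI and 6 on V6.5. miR-547-5p had the brightest spot on the EB, PKM1 KI and V6.5, at 51 on the EB, 58 on 2TS22c, 54 on ZHBTc4, 71 on PKM1 KI and 73 on V6.5. On 2TS22c miR-743b-3p was brightest, at 64, and on ZHBTc4 miR-471-5p, at 67. limma tested 10 of them in the switchable comparison and called 0, as it did for the 12 tested on the EB.

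A list of 18 other miRNAs known to act against self-renewal factors, such as the let-7 family, miR-34, miR-21, miR-24, miR-27a and miR-200c, was read beside the members. Of 17 tested in the switchable comparison 7 were higher and 10 lower, at a median of -0.03, the same as for all miRNAs, or 3 higher and 14 lower with spike scaling. miR-34a-5p, which acts downstream of p53 and was found to repress Nanog, Sox2 and Mycn in mouse cells, rose in the switchable lines on the quantile scale. Its spot read 161 on 2TS22c and 177 on ZHBTc4, against 141 on PKM1 KI and 206 on V6.5. On the log2 scale these are 8.03 and 8.04 against 7.06 and 7.39, a difference of 0.81 with a limma adjusted p of 0.0174. With spike scaling the difference was 0.06, at a limma adjusted p of 0.794, and with local background 0.52, at 0.482. miR-21a-5p fell, at 7.45 and 7.40 in the switchable lines against 8.01 and 8.06 in PKM1 KI and V6.5, with a difference of -0.61 and a limma adjusted p of 0.0163. That call was lost with local background, at -0.33 and a limma adjusted p of 0.397, and kept with spike scaling, at -1.21. In the EB 11 of 18 were higher and 7 lower than the ES mean, with 0 past limma's threshold.

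The miRNAs whose log2 profile over the 5 arrays was nearest to that of a member, by root mean square distance after centring, were read among 958 others. For miR-296-5p these were miR-486-3p, miR-25-5p and miR-5046, at distances of 0.028, 0.056 and 0.060. The log2 signal of miR-486-3p was 8.39 on the EB, 7.82 on 2TS22c, 7.84 on ZHBTc4, 8.28 on PKM1 KI and 8.22 on V6.5. For miR-296-3p they were miR-196a-5p, miR-874-5p and miR-543-3p, at 0.023, 0.031 and 0.038. For miR-134-5p they were miR-376b-5p, miR-547-5p and miR-6344, at 0.021, 0.026 and 0.035. Its profile spans only 0.27, and 179 miRNAs lay within a distance of 0.1 of it. For miR-145a-5p they were let-7e-5p, miR-186-3p and miR-128-3p, at 0.043, 0.047 and 0.051. For miR-470-5p they were miR-186-5p, miR-135b-5p and miR-686, at 0.070, 0.073 and 0.081. Within the same distance of 0.1 lay 18 miRNAs for miR-296-5p, 48 for miR-296-3p, 83 for miR-145a-5p and 9 for miR-470-5p.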

How the data were processed

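Total RNA of 5 cultures was measured on 5 single-colour arrays. Per the file headers, the deposited scanner files hold an intensity for each spot, the median over its pixels, from which no background was subtracted. The authors' deposited table of processed intensity values has a median of 25 per array and follows the scanner values along a line; its background choice is not stated in the sources used here, and it was used as an alternative. Each column was matched to its sample by name.

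Intensities were corrected with limma's normexp (fitted by the saddle method to all spots, with an offset of 50), then quantile-normalised over the 1265 miRNA spots and put on a log2 scale (R 4.3.3, limma 3.58.1). limma tests used lmFit, eBayes and Benjamini-Hochberg over all miRNAs detected on at least 1 array in the fit, with a threshold of 0.05. They compared the EB with the 4 ES lines, and 2TS22c and ZHBTc4 with V6.5 and PKM1 KI. A check on simulated data took its spread from 2TS22c and ZHBTc4 alone. It thus does not cover the spread of the 4 ES lines that the EB test uses. Single arrays were compared without a test, with a bound where 1 of the 2 detected the miRNA. p-values measure the spread between lines, and the number of arrays limits the precision. Alternatives were local or no background correction, offset 16, median and spike scaling, the deposited table, the negative control limit, no detection filter, other arrays in the fit and PKM1 KI as the base. The members, lists and rule for named miRNAs (members, other arms, neighbours, the brightest of large clusters, those past limma's threshold, the 3 nearest profiles) were chosen with earlier results of these data known. Neighbours were placed with RefSeq positions on GRCm38.p6.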

Additional observations from a re-analysis of the deposited data

Results flagged for a closer look

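On the quantile scale miR-145a-5p on ZHBTc4 stood apart from the other ES lines. Its log2 signal was 6.14 on ZHBTc4, against 6.31 on 2TS22c, 6.29 on PKM1 KI and 6.30 on V6.5, and the gap to the nearest line was 0.883 of the whole range. The log2 difference of ZHBTc4 over PKM1 KI, the nearest line, was -0.15, about as large as the spot error of a difference, 0.15. ZHBTc4 was also the one array on which miR-145a-5p was not detected. Of 8 such sets of 4 ES arrays examined 1 stood out in this way, and chance marks about 5% of sets.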

How the results depend on the processing

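No paired analysis was possible because each group has 1 array. In the EB test no alternative gave a call in either direction, and miR-296-5p stayed higher on the EB in all of them, by 0.38 to 1.33, or 0.31 to 0.46 with 1 ES line left out. The negative control limit and the lack of a detection filter could not change that difference. Signs turned for dim members: miR-296-3p gave 0.14 with local background, 0.53 with spike scaling, 0.36 in the deposited table and 0.021 without ZHBTc4 (range over lines left out -0.13 to 0.021); miR-134-5p gave -0.060 with median scaling; miR-470-5p gave 0.023 with local background and 0.47 in the deposited table. In the switchable comparison the 72 miRNAs called higher became 20 with local background, 18 with spike scaling and 16 in the deposited table. The 62 called lower became 14, 37 (offset 16), 222 (spike) and 254 (deposited table). With 1 line left out 0 were called in each direction, the lone line being assumed to vary like the others. miR-296-5p was past the threshold at -0.59 with median scaling, -1.24 with spike scaling and -1.30 in the deposited table, and ranged from -0.46 to -0.33 with 1 line left out (limma adjusted p 0.138 to 0.253). miR-296-3p turned to -0.17 (spike) and -0.39 (deposited table), miR-145a-5p to 0.076 (median scaling) and 0.016 without ZHBTc4 (-0.15 to 0.016 over lines left out), and miR-470-5p to -0.028 without 2TS22c (-0.028 to 0.43). Members at least 2-fold lower than V6.5, 0 as reported, numbered 1 on 2TS22c and 1 on ZHBTc4 with spike scaling, each time miR-296-5p, and 2, 3 and 1 on 2TS22c, ZHBTc4 and PKM1 KI in the deposited table; the cause was not tested. Over all miRNAs, the alternatives gave 1 to 33 higher and 1 to 87 lower on the EB, 2 to 39 and 1 to 45 on PKM1 KI, 1 to 44 and 16 to 271 on 2TS22c, and 0 to 31 and 11 to 232 on ZHBTc4. Of 155 member differences between arrays under an alternative, 107 moved by less than 0.15, the spot error of a difference. The negative control limit could not move a difference, and its values are counted among the 107. Signal over background limits the values of miR-134-5p, miR-145a-5p and miR-470-5p, whose spots lie near the blanks.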
